A study of Mus musculus with 27 samples.

Results

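Embryonic mouse hearts were compared by how much red cell transcript they carried, with Alas2 as the gauge. The arrays were chosen by their measured Alas2 signal: all 27 of the series were ranked by its probe set in the deposited log2 values, and the 9 arrays with the highest signal were set against the 9 with the lowest, so 18 of the 27 arrays entered the comparison. Alas2 had a single probe set, so no choice between probe sets was needed. Each array holds total RNA of whole hearts dissected at E11.5 from mice of a C57Bl/6/BLKSW mix. The genotypes were wild type (n = 6), Brg1+/- (n = 6), Tbx5+/- (n = 5), Nkx2-5+/- (n = 4), Tbx5+/-;Brg1+/- (n = 3) and Nkx2-5+/-;Brg1+/- (n = 3), where each +/- stands for loss of 1 copy of the gene. Smarca4 is the gene for Brg1, a motor subunit that lets BAF complexes move nucleosomes. The other targeted genes, Tbx5 and Nkx2-5, encode DNA-binding regulators of heart formation. The labels do not say whether the deletions were germline or made by a Cre, nor how many hearts went into an array or how much blood was left in the chambers.

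Alas2 encodes the red cell form of aminolevulinate synthase, the enzyme of the first step of heme synthesis, and lies on the X chromosome. Its paralog Alas1 carries out the same step in other tissues. The chambers of the embryonic heart hold circulating primitive red cells, which still have nuclei and RNA and make embryonic globins, so that RNA of a whole heart mixes red cell transcripts with those of muscle, endocardium, cushion and epicardium.

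Heart muscle genes were bright in every array, with a sarcomere list mean of 9.86 or more. In an array pair Smarca4 did not follow the labels. Smarca4 read 9.57 in Nkx2-5+/- replicate 3, while the other 14 arrays without Brg1 in the label read between 9.89 and 10.23. Nkx2-5 read 9.40 in that array against 8.48, 8.48 and 8.63 in the other Nkx2-5+/- arrays. Tbx5+/-;Brg1+/- replicate 3 had Smarca4 at 10.01, against 9.51 and 9.64 in replicates 1 and 2. Its Nkx2-5 read 9.65, against 9.87 and 9.97 in those replicates, and was not at the level of the other Nkx2-5+/- arrays. Whether labels were exchanged was not tested. The library labelled Nkx2-5+/- replicate 3 is among the 9 lowest for Alas2 and the library labelled Tbx5+/-;Brg1+/- replicate 3 is among the 9 highest, so results that rest on them are given without this pair as well. Tbx5 was not lower in hearts labelled Tbx5+/-. It read 8.80, 8.89, 8.51, 8.90 and 8.89 in replicates 1 to 5, 8.63, 8.70 and 8.499 in the Tbx5+/-;Brg1+/- arrays and 8.40 to 8.96 in the 6 wild type arrays, so these ranges overlap. Which part of the gene was deleted and whether the probe set lies in it are not given in the sources used here, so Tbx5 does not check these labels. Wild type replicate 3, which had the highest mean of liver genes (7.32 on the log2 scale), lies among the 9 arrays between and so entered neither end.

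Alas2 was well above the array medians (6.18 to 6.33) in every heart. The 9 highest arrays read between 12.07 and 12.75, with a median of 12.28 and a mean of 12.36 ± 0.26 (SD, n = 9). The 9 lowest read between 9.77 and 11.09, with a median of 10.77 and a mean of 10.70 ± 0.39 (SD, n = 9). The means differ by 1.66 on the log2 scale, a 3.16-fold difference that the ranking itself made. The limits of both ends fall in a continuous series of values. The last array in the high end read 12.07 and the next one 12.00, and the first array in the low end read 11.09 with its neighbour just outside at 11.12.

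**Figure D1:**
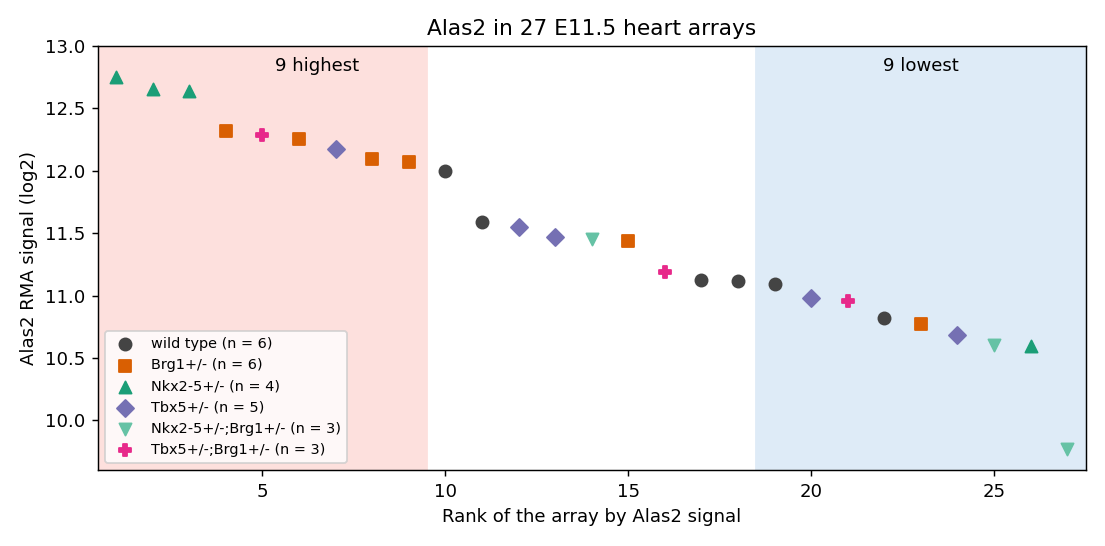
Alas2 RMA signal (log2) of the 27 arrays in order of rank, 1 point per array, with colour and shape for genotype and shading for the 9 highest and 9 lowest. Nkx2-5+/- arrays take the first 3 ranks and also rank 26, and no wild type array lies in the high end.

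Genotypes were spread unevenly over the ranking. The high end held 4 Brg1+/- arrays, 3 Nkx2-5+/-, 1 Tbx5+/- and 1 Tbx5+/-;Brg1+/-. The low end held 2 wild type arrays, 2 Tbx5+/-, 2 Nkx2-5+/-;Brg1+/- and 1 each of Brg1+/-, Nkx2-5+/- and Tbx5+/-;Brg1+/-. No wild type and no Nkx2-5+/-;Brg1+/- array reached the high end. By Xist, 6 arrays were female-like and 3 male-like at each end, so the X-linked gauge did not separate the sexes.

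Mean Alas2 by genotype was 12.16 ± 1.04 (SD, n = 4) in Nkx2-5+/-, 11.82 ± 0.60 (SD, n = 6) in Brg1+/-, 11.48 ± 0.71 (SD, n = 3) in Tbx5+/-;Brg1+/-, 11.37 ± 0.57 (SD, n = 5) in Tbx5+/-, 11.29 ± 0.43 (SD, n = 6) in wild type and 10.61 ± 0.84 (SD, n = 3) in Nkx2-5+/-;Brg1+/-. Neighbours in this order lie closer than the SD of either group, except wild type and Nkx2-5+/-;Brg1+/-, whose difference is between the SDs of both. Against wild type, limma gave differences of 0.87 for Nkx2-5+/- (SE 0.39, adjusted p = 0.171) and 0.53 for Brg1+/- (SE 0.35, adjusted p = 0.624). The other differences were -0.68 for Nkx2-5+/-;Brg1+/- (SE 0.42, adjusted p = 0.726), 0.19 for Tbx5+/-;Brg1+/- (SE 0.42, adjusted p = 0.989) and 0.08 for Tbx5+/- (SE 0.36, adjusted p = 1), so that none passed the threshold of 0.05. The sign of the last 2 was not stable, since Tbx5+/- gave -0.12 without replicate 1 and Tbx5+/-;Brg1+/- gave -0.22 without the library labelled replicate 3. Without the pair of arrays named above, the Nkx2-5+/- difference was 1.39 (SE 0.33) and passed, with a limma adjusted p of 0.00325 and Alas2 higher in 3 of 3 such arrays than in every wild type array.

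The promoter of Alas2 and those of Hemgn, Rhag and Epb42, which are among the red cell genes with the largest differences, are shown because red cell genes moved together across these arrays. Windows of other red cell genes with differences of like size, such as Rhd, are not shown, so these examples do not stand for the list. Each line holds the 250 bases before a RefSeq start site of assembly GRCm38.p6 on the gene's strand, with GATAA, the core that GATA1 recognises, in capitals (TTATC where it reads on the other strand).
Alas2 chrX:150547167-150547416 (+): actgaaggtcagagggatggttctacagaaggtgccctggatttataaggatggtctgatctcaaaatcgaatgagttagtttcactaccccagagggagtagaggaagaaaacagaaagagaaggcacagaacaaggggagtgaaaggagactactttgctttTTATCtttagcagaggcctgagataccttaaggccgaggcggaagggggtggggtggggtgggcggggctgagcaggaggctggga
Hemgn chr4:46404184-46404433 (-): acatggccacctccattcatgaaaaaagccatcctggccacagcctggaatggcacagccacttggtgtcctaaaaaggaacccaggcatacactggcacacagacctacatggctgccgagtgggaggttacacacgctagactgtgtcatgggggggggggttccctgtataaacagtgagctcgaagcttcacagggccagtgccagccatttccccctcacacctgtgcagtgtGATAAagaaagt
Rhag chr17:40810899-40811148 (+): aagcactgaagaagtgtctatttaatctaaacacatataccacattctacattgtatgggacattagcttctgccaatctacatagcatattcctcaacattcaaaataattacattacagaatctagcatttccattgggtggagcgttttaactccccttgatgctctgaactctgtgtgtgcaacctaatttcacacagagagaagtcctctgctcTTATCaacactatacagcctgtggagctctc
Epb42 chr2:121036878-121037127 (-): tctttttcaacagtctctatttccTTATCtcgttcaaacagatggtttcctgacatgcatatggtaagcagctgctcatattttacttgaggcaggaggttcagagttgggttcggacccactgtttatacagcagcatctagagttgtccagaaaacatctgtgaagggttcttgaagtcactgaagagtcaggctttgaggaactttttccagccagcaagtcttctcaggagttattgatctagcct
The first base of the motif lies 86, 12, 31 and 226 bases before the start in these 4 windows. Among 32851 windows of this length over all genes, 22.6% hold GATAA on either strand, against 37.8% of the 82 windows of Alas2 and the red cell list genes, 30.8% of the 39 windows of sarcomere genes and 13.3% of the 15 of endothelial genes. CACCC on either strand, the core that KLF1 recognises, is in 52.0% of all windows and 69.5% of those of the red cell genes, and also in 66.7% of the windows of sarcomere genes and of endothelial genes and 81.2% of the 16 windows found for 13 of the 15 largest higher genes outside the red cell lists. Of those 16 windows 18.8% hold GATAA. Both motifs are in 10.1% of all windows, 31.7% of those of red cell genes and 23.1% of those of sarcomere genes. These matches describe letters in a window and were not tied to binding, which was not measured.

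Red cell genes of every function were higher in the hearts with high Alas2. Because the ranking used a red cell gene of these same arrays, all differences between the ends are descriptions without a test, and the count of all genes past a set size stands beside them. Among 19935 genes, 2.85% were higher by log2 0.5 or more in the high end, which is 567 genes beside Alas2, and 89 (0.446%) were lower. The lower count was the less stable of both, with 51 genes without Nkx2-5+/- replicate 2, 213 without Tbx5+/- replicate 1 and 150 without the pair of arrays against their labels. Of the 77 measured genes of the 5 red cell lists, 67 were higher by at least 0.5, and for 49 of them the lowest of the 9 high arrays lay above the highest of the 9 low arrays, a pattern shown by 1.87% of all genes upward and 0.637% downward. In RNA of whole hearts, fewer cells of a type and less RNA per cell cannot be told apart.

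Membrane and skeleton genes of the red cell had the largest list median, 1.87. Rhag, the ammonia channel of the Rhesus complex, read between 10.41 and 11.80 (median 10.76) in the high end and between 7.87 and 9.16 (median 8.56) in the low end, a difference of 2.37 with no overlap. Epb42, the membrane skeleton protein 4.2, differed by 2.03, and Rhd, the Rhesus blood group protein, by 2.11. Kel, another blood group antigen, read 10.74 ± 0.30 against 8.74 ± 0.33 (SD, n = 9 each). Aqp1, a water channel of red cells that endothelium also carries, was the list's only member below 0 (-0.56), and it is named here after its values were seen.

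Among red cell regulators the median was 1.29. Hemgn, a nuclear regulator of erythroid differentiation, gave the largest difference of all 19935 genes, 2.39, with 8.92 to 11.29 (median 10.40) in the high end and 6.70 to 8.87 (median 7.87) in the low end. Gata1 differed by 1.98, Klf1 by 1.74 and Epor, the erythropoietin receptor, by 1.85. Of these named genes all but Epor, where 1 low array lay inside the high range, were without overlap. Over the whole list, 12 of 15 were higher by 0.5 or more and 8 of 15 were without overlap. Those shares stand beside 2.85% and 1.87% of all genes. The other way, 2 of 15 lay below 0, the lowest at -0.19.

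Heme and iron genes had a median of 1.21, with 20 of 21 higher by 0.5 or more. Slc25a37, the mitochondrial iron importer mitoferrin, differed by 1.92, Cpox by 1.85 and Fech, which inserts the iron into heme, by 1.67. Hmox1, which breaks heme down, was the exception at -0.29 and is named after its values were seen. Alas1 differed by -0.25 (8.85 ± 0.53 against 9.10 ± 0.29, SD, n = 9 each), with 8 of the 9 low arrays inside the high range, so the paralog did not track Alas2.

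Globins had a median of 0.92 over the 6 measured, beside 0.98 for red cell enzymes, and 5 of 6 were higher by 0.5 or more. Hba-x, the embryonic alpha-like globin, read 13.98 ± 0.13 in the high end and 13.42 ± 0.16 in the low end (SD, n = 9 each), a difference of 0.56 near the top of the array's range. Hbb-bh1 differed by 1.02 and Hbb-y, named after its values were seen, by 0.22. Hbq1b, a theta-like globin with much lower signal, differed by 1.71. The adult globins were not analysed here, since their probe sets match several genes.

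**Figure D2:**
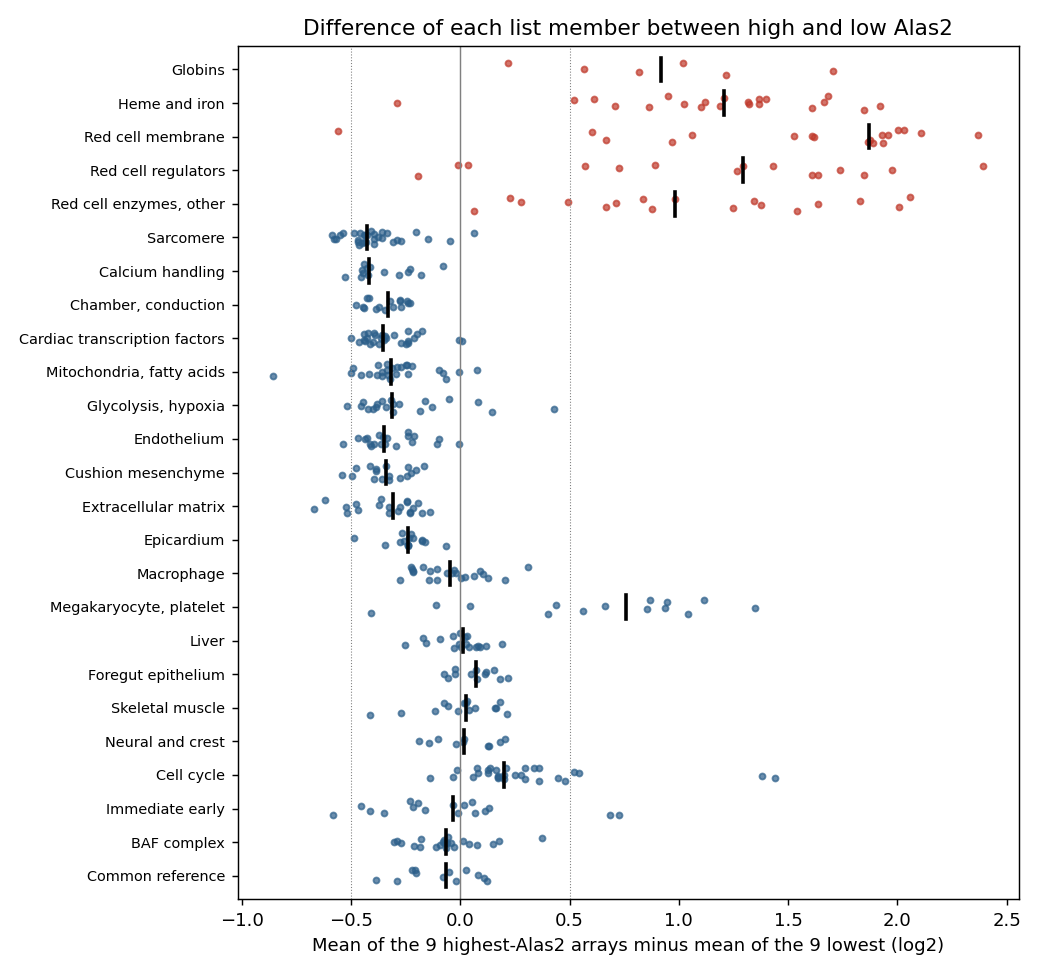
Difference between the mean of the 9 highest-Alas2 arrays and the mean of the 9 lowest (log2) for each measured member of 25 gene lists, 1 point per gene, with a bar at each list's median and dotted lines at 0.5 and -0.5. The 5 red cell lists (red) have medians of 0.92 to 1.87, the megakaryocyte list lies at 0.76, and heart muscle, endothelial and mesenchymal lists lie at -0.24 to -0.43.

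Beyond the red cell lists, 500 of 19857 genes were higher by 0.5 or more and 134 of them by 1 or more. On the lower side 88 passed 0.5 and 0 passed 1, so the differences were far from symmetric. Over all genes 55.8% were below 0, and the median gene differed by -0.02. Genes with a mean signal under log2 5 had a median of 0.01 and those between 10 and 11 a median of -0.11, so brighter genes sat slightly lower in the high end.

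The largest higher values outside the lists came from genes of several kinds. Being outside means only not being a member of the 5 red cell lists, so such genes may still be expressed by red cells. Mir144 was first with 2.27, from 6.05 to 8.94 (median 7.08) in the high end and 4.69 to 5.83 (median 5.06) in the low end. Hsd3b6, a steroid dehydrogenase, differed by 2.13, Cldn13, a claudin, by 2.06 and Mt2, a metallothionein that binds zinc and copper, by 2.05. Except for Mt2, where 1 low array lay inside the high range, these did not overlap.

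Membrane transport was represented by Kcnn4 (1.85), the calcium-gated potassium channel known from red cells, Aqp8 (1.79), a water channel, and Mfsd2b (1.79), a sphingosine-1-phosphate exporter. Acp5, an acid phosphatase, differed by 1.90, Ell2, an elongation factor, by 1.88, Tnfrsf14 by 1.91 and Reln, the secreted glycoprotein reelin, by 1.80. Each of these genes was without overlap between the ends.

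Mir144 and Mir451a lie side by side as 1 cluster of the red cell lineage. Mir451a, named after its values were seen, read 6.23 to 8.67 in the high end and 5.39 to 6.23 in the low end (7.29 ± 0.77 against 5.88 ± 0.25, SD, n = 9 each), a difference of 1.41 without overlap. Its lowest high array, Brg1+/- replicate 1, and its highest low array, Tbx5+/- replicate 5, nearly touch. The probe sets report the gene locus and not the processed arms, whose RefSeq sequences are shown with the seed, bases 2 to 8, in capitals because they differ in every seed.
mmu-miR-144-3p chr11:78073047-78073066 (+): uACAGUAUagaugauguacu
mmu-miR-144-5p chr11:78073010-78073032 (+): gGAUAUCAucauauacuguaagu
mmu-miR-451a chr11:78073186-78073207 (+): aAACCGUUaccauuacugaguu
Mir144 took its highest values in the 3 Nkx2-5+/- arrays of the high end and Brg1+/- replicate 2, and Mir451a did so in the same 4 arrays in another order, with Nkx2-5+/- replicate 2 first for both (8.94 and 8.67).

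**Figure D3:**
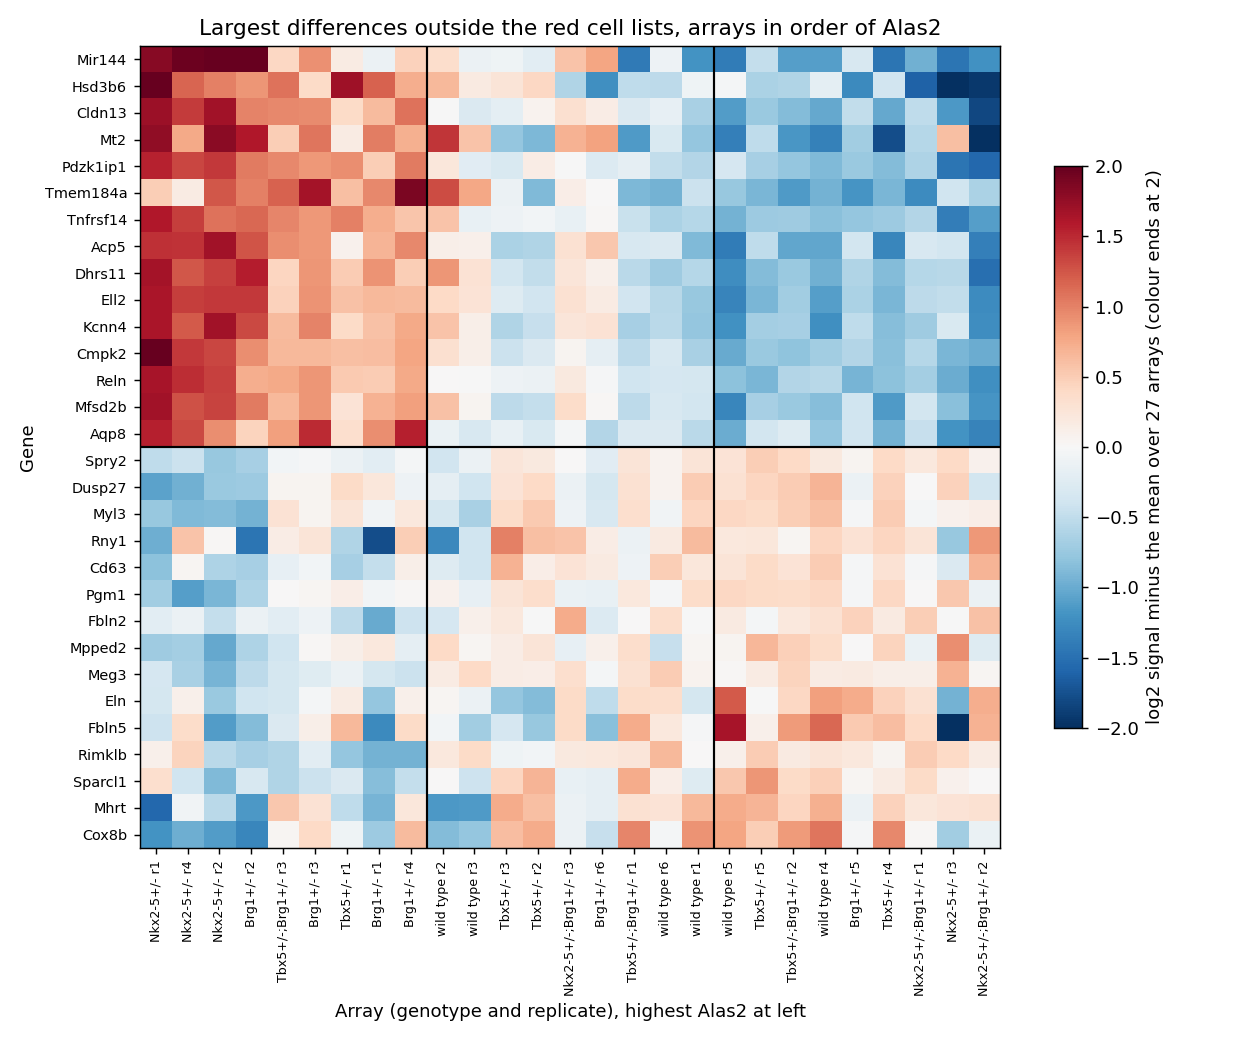
Log2 signal minus the gene's mean over 27 arrays for the 15 largest higher (top) and 15 largest lower (bottom) genes outside the red cell lists, arrays ordered by Alas2 with lines between the 9 highest, the 9 between and the 9 lowest. The upper genes change colour steadily along the order, while many lower genes are lowest in the first 4 arrays, 3 of which are Nkx2-5+/-.

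Transcripts of the megakaryocyte and platelet lineage, which shares GATA1 with red cells, were also higher. The list median was 0.76, with 9 of 14 members higher by 0.5 or more, against 2.85% of all genes. The count without overlap was 0 of 14, against 1.87% of all genes upward. Going the other way, 2 of 14 members lay below 0, the lowest at -0.41. Ppbp, a platelet chemokine, read 9.09 to 10.36 (median 9.75) in the high end and 6.20 to 9.75 (median 8.39) in the low end. Pf4, platelet factor 4, differed by 1.11 and Itga2b, the platelet integrin chain, by 0.95. For each of these genes 1 or 2 low arrays lay inside the high range.

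Cell cycle genes leaned upward by a small amount. The median was 0.20, with 26 of 29 members above 0 against 44.2% of all genes. Of the list, 4 of 29 were higher by 0.5 or more, against 2.85% of all genes. Those 4 were Cdc25b, a phosphatase that starts mitosis, with 1.44, Mki67, a marker of dividing cells, with 1.38, Kif11, a spindle motor, with 0.54 and Ccna2 with 0.52. With genotype as a block the list median was 0.12. Kif11 (0.25) and Ccna2 (0.41) did not pass 0.5 there, while Cdc25b (1.26) and Mki67 (1.04) did. Mki67 read 10.72 to 12.22 (median 11.66) in the high end and 9.59 to 10.79 (median 10.25) in the low end. Dusp1, an immediate early phosphatase, differed by 0.72 without overlap, while the median of the 17 immediate early genes was -0.03 and Ccn1, a matricellular target of the same stimuli, differed by -0.58.

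Heart muscle genes were lower in the hearts with high Alas2, by much less than red cell genes were higher. For sarcomere genes the median was -0.43, and 30 of 31 lay below 0, against 55.8% of all genes, and 5 of 31 lower by 0.5 or more. Myl7, the atrial regulatory light chain, read 11.97 to 12.95 (median 12.62) in the high end and 13.004 to 13.36 (median 13.10) in the low end, a difference of -0.54 and the list's only member without overlap. Myl3, an essential light chain, differed by -0.59, Mybpc3, myosin-binding protein C, by -0.57 and Actn2, the Z-disc actinin, by -0.55. For Actn2 all 9 low arrays lay inside the high range.

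The summed picture by array was uneven within the high end. The sarcomere list mean ran from 9.86 to 10.76 in the high end and from 10.52 to 10.89 in the low end. The 4 arrays with the highest Alas2, Nkx2-5+/- replicates 1, 2 and 4 and Brg1+/- replicate 2, had the lowest means, and the other 5 high arrays lay between 10.56 and 10.76, inside the range of the low end. Over 27 arrays the list mean had a Pearson r with Alas2 of -0.62 (Spearman's rho -0.55) and of -0.65 without the 2 arrays farthest from the median of Alas2. After each genotype's mean was subtracted r was -0.63.

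Other muscle groups gave like medians. Calcium handling genes stood at -0.42 with 14 of 14 below 0, led by Jph2, a junctional membrane protein, at -0.53 and Ryr2, the calcium release channel, at -0.44. Chamber and conduction genes stood at -0.33 with 16 of 16 below 0, among them Gja1, connexin 43, at -0.48 and Nppb, a natriuretic peptide, at -0.45. Of these lists 1 of 14 and 0 of 16 members passed 0.5, and none was without overlap. Over all genes 55.8% were below 0 and 0.446% lower by 0.5 or more.

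Cardiac transcription factors had a median of -0.35 with 27 of 28 below 0, against 55.8% of all genes. Tbx20 differed by -0.50, Gata6 by -0.46 and Hand2 by -0.44. Among the genes targeted in the study, Tbx5 differed by -0.43, Nkx2-5 by -0.39 and Smarca4 by -0.06, and the ends hold unequal numbers of each genotype. For Smarca4 the sign turned under 9 of 33 other settings, among them genotype as a block (0.13) and equalised array medians.

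Lists of metabolic genes were lower as well. Mitochondrial and fatty acid genes had a median of -0.32 with 25 of 26 below 0, and glycolytic and hypoxia genes a median of -0.31 with 17 of 20 below 0. Both list means were lowest in Nkx2-5+/- replicates 1, 2 and 4 and Brg1+/- replicate 2. In the rest of the high arrays they lay inside the range of the low end. Pearson's r of these list means with Alas2 over all arrays was -0.48 and -0.44. Cox8b, a muscle subunit of cytochrome oxidase, had the lowest difference of all 19935 genes, -0.86 (7.10 ± 0.74 against 7.96 ± 0.60, SD, n = 9 each), and 5 low arrays lay inside the high range. With genotype as a block its difference was -0.53. Hk2, a hexokinase, differed by -0.52, while Ndrg1, a stress response gene, was higher by 0.43. Mhrt, the long noncoding RNA from the Myh7 locus, had the next lowest difference, -0.82.

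Endothelial genes were lower too. All 20 of 20 members were below 0, against 55.8% of all genes, and their median was -0.35. Egfl7, a secreted endothelial protein, read 8.34 to 8.68 (median 8.55) in the high end and 8.95 to 9.17 (median 9.09) in the low end, and Nos3, the endothelial nitric oxide synthase, differed by -0.41. These 2 of 20 were without overlap, a pattern shown downward by 0.637% of all genes. Kdr, the receptor for VEGF, differed by -0.44 and Npr3, an endocardial natriuretic peptide receptor, by -0.47, both with overlap.

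Cushion mesenchyme, matrix and epicardium followed. Over all genes 55.8% were below 0 and 0.446% lower by 0.5 or more. Cushion genes had a median of -0.34 with 17 of 17 below 0, with Prrx2 at -0.54 and Pdgfra, a receptor of mesenchymal cells, at -0.50. Matrix genes had a median of -0.31 with 20 of 20 below 0 and 4 of 20 lower by 0.5 or more. Fbln2, a fibulin of the cushions, differed by -0.62 without overlap (8.56 to 9.46 against 9.53 to 10.16), and Eln, elastin, by -0.67 with 1 low array inside and 1 below the high range. With genotype as a block Eln differed by -0.29. Epicardial genes had a median of -0.24 with 15 of 15 below 0, among them Wt1 at -0.28 and Tcf21 at -0.26.

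Among lower genes outside the lists, Meg3, an imprinted noncoding RNA, differed by -0.66 (8.33 to 9.14 against 9.28 to 9.95) and Spry2, an inhibitor of growth factor signalling, by -0.58, each without overlap. Sparcl1, a matrix protein, differed by -0.76, Rimklb by -0.72 and Fbln5 by -0.70, all with overlap. For Fbln5 the other choices of arrays did not give 1 direction. Its difference was 0.08 with genotype as a block, -1.03 without hearts whose label names Nkx2-5 and -0.70 within Brg1+/- hearts. The cause was not tested.

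Lists of other cell types differed little. Macrophage genes had a median of -0.05, which was 0.16 with genotype as a block, and 0 of 22 passed 0.5. Liver genes had a median of 0.01, foregut epithelium 0.07, skeletal muscle 0.03 and neural and crest cells 0.02, and none of their genes passed 0.5 either way. Within Brg1+/- hearts, 3 highest against 3 lowest, the liver median was -0.36 with 18 of 18 below 0, while the median of all genes was -0.003. Liver list means of the low arrays there were 6.485 in replicate 6, 5.65 in replicate 4 and 5.35 in replicate 5. The high arrays read 5.26, 5.26 and 5.49, so much of this difference came from replicate 6. Liver list means ran from 5.26 to 6.25 in the high end and from 5.14 to 5.96 in the low end. The part of neighbouring tissue in the other differences was not tested.

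Common reference genes were not all flat across the ranking. The median of 12 was -0.07, and B2m differed by 0.12 and Actb by -0.02. Pgk1, a glycolytic enzyme often used for scaling, differed by -0.39, Gusb by -0.29 and Hprt by -0.20. Of the 22 BAF complex genes 0 passed 0.5, with a median of -0.07 and Pbrm1 the farthest from 0 at 0.37.

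**Figure D4:**
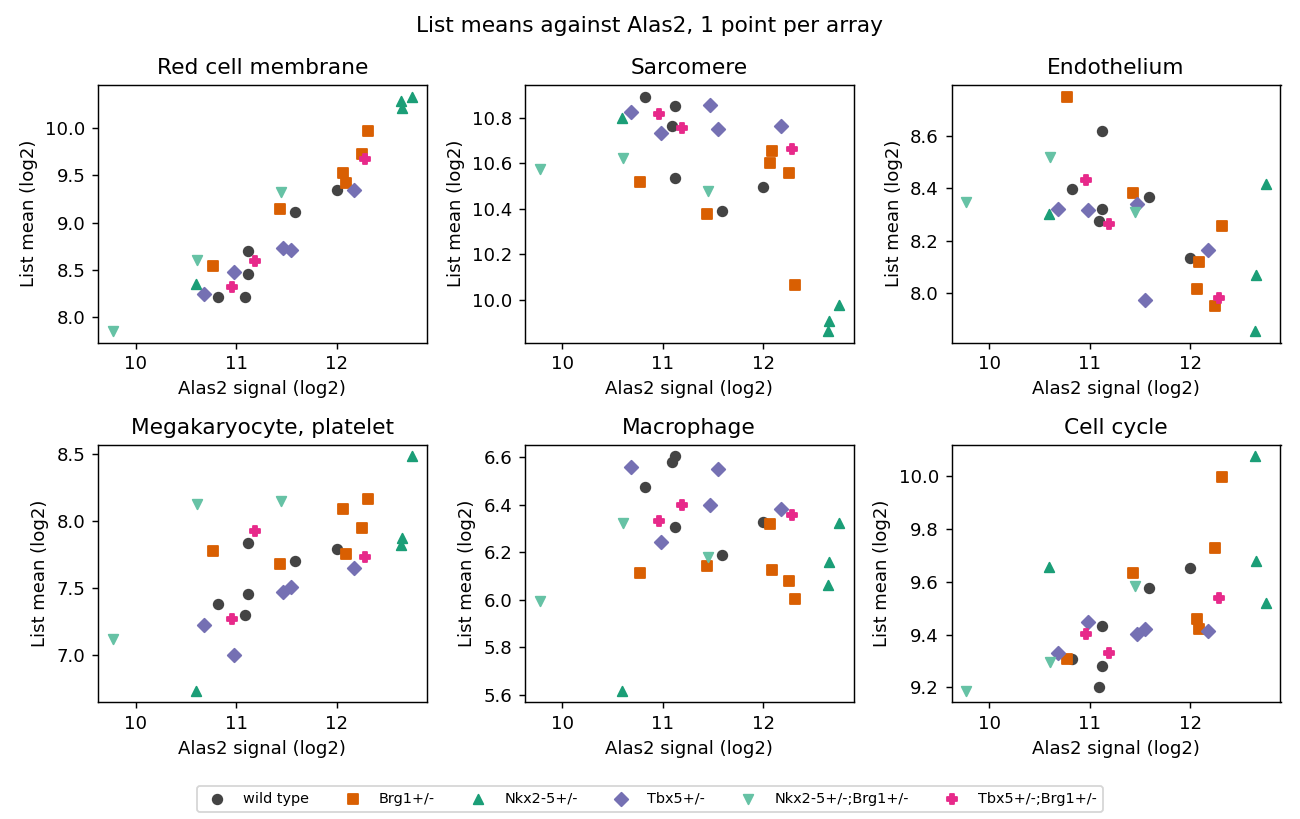
Mean log2 signal of 6 gene lists against Alas2 signal (log2), 1 point per array, coloured and shaped by genotype. The red cell membrane list lies along a narrow band, the sarcomere list lies between 9.86 and 10.07 in 4 arrays and at 10.38 or more in all others, and the macrophage list has no clear course.

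The 9 arrays between the ends were not used in the contrast, and most of the genes that differed between the ends, though not every list, followed Alas2 in them. Within them, 445 of the 500 higher genes outside the red cell lists (89.0%) had a positive Pearson r with Alas2, against 44.8% of all 19857 genes outside the lists. Of the 88 lower genes, 76 had a negative r and 12 (13.6%) a positive one. By list, r was negative for 20 of 20 endothelial, 25 of 31 sarcomere and 17 of 20 matrix genes and positive for 23 of 29 cell cycle genes. Other lists had no common sign there, with negative r for 8 of 17 cushion genes, 9 of 16 chamber genes and 10 of 20 glycolytic genes, and positive r for 7 of 14 megakaryocyte genes. The mean of the middle arrays lay between both ends for 499 of the 500 and for 84 of the 88, against 9804 of all 19857. Genes chosen for a wide gap between the ends are more likely to have a middle mean inside it. All 27 arrays were normalised together, so these 9 are not fully separate from the ends, and the counts are given as a description without a test.

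The genes whose level was most like that of Alas2 were members of the red cell lists for 9 of the first 10. Over 27 arrays Pearson's r was 0.98 for Blvrb, Fech, Fth1, Xk and Gpx1, with Spearman's rho between 0.97 and 0.98, and the next were Epb42, Kel, Slc4a1, Nudt4 and Trim10. Fth1, the heavy chain of ferritin, did so with a small difference, 0.71 (13.38 ± 0.13 against 12.67 ± 0.17, SD, n = 9 each). Outside the red cell lists the highest were Nudt4 with 0.97, Slc22a4 with 0.97, Creg1 with 0.97 and Ncoa4, the receptor that delivers ferritin for breakdown, with 0.97. These coefficients moved by at most 0.01 when the 2 arrays farthest from the median of Alas2 were left out.

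The lowest coefficients outside the lists belonged to Corin, the protease that activates natriuretic peptides, with an r of -0.87 (rho -0.88), Dab2ip and Mical2 with -0.85 each and Zfp516 with -0.85. Corin read 8.51 ± 0.17 in the high end and 9.01 ± 0.11 in the low end (SD, n = 9 each) without overlap. Csrp2, a LIM protein, had an r of -0.83 and Egfl7 of -0.84. These genes were picked for their low coefficients, so their r cannot be set against that of a list mean. The differences of the 10 lowest, -0.29 to -0.54, lay within the range of sarcomere genes (-0.59 to 0.06). All points of such a coefficient come from arrays normalised together.

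Genotype was part of the contrast, so the list medians were computed again with other choices of arrays. With genotype as a block the sarcomere median was -0.30, the endothelial -0.46, the mitochondrial -0.18 and the red cell membrane 1.64. Without all hearts whose label names Nkx2-5, 6 high and 6 low arrays remained with an Alas2 difference of 1.31. The sarcomere median was then -0.22 with 30 of 31 below 0, the endothelial -0.33 with 20 of 20 below 0 and the matrix median -0.34. The median of all genes in these arrays was -0.025. Without the pair of arrays that went against their labels, the sarcomere median was -0.44, the endothelial -0.31 and the red cell membrane median 1.77.

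Hearts of a single genotype gave the smallest contrast. Among the 6 Brg1+/- arrays the 3 highest and 3 lowest differed by 0.79 in Alas2. The 3 lowest include replicate 4 (12.07), which is in the high end of the series and next to replicate 1 (12.09) of the 3 highest. The difference in Alas2 thus rests on replicates 5 and 6. The median of all genes in this contrast was -0.003. The red cell membrane median was 0.78 there and the heme and iron median 0.60. Endothelial genes stood at -0.26 with 19 of 20 below 0 and matrix genes at -0.27 with 19 of 20 below 0, while the sarcomere median was -0.05 with 22 of 31 below 0. Chamber genes (0.01), mitochondrial genes (0.06) and glycolytic genes (0.02) turned sign. Actn2 (0.25), Mybpc3 (0.07), Gja1 (0.05) and Hey2 (0.11) turned sign with them, and Egfl7 (-0.36) and Myl7 (-0.48) did not.

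**Figure D5:**
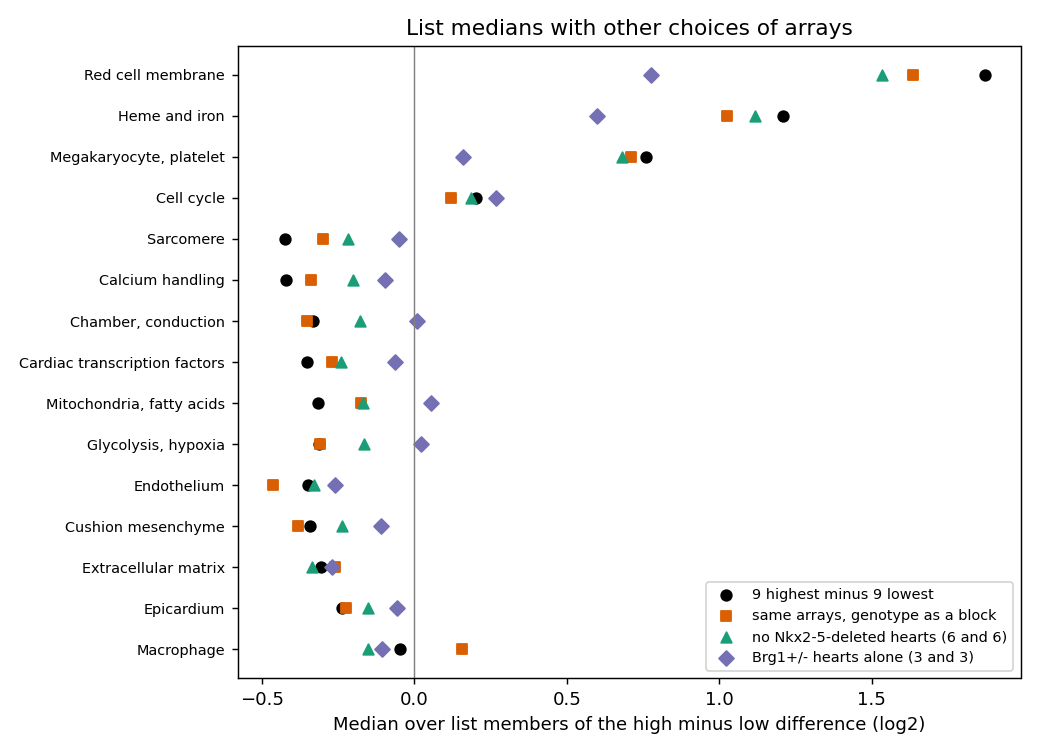
Median over list members of the high minus low difference (log2) for 15 gene lists with 4 choices of arrays. Endothelial and matrix medians lie between -0.26 and -0.46 in all 4, whereas the muscle and metabolic lists lie nearer to 0 in Brg1+/- hearts alone (3 and 3) than among the 9 and 9.

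Genotype calls were counted without and with Alas2, the value that ranked the arrays, as a covariate. The change in the count between both fits is a description and not a test. All comparisons are against the same 6 wild type arrays. For Nkx2-5+/-, limma called 543 genes higher (2.72%) and 1029 lower (5.16%) at an adjusted p under 0.05, 1572 in all. With Alas2 as a covariate it called 47 higher (0.236%) and 88 lower (0.441%), 135 in all. Since 3 of the 4 Nkx2-5+/- arrays lie within 12.64 to 12.75, the genotype and the Alas2 level cannot be told apart in them, and the slope on Alas2 comes from the other groups and from replicate 3. Without the pair of arrays against their labels the counts were 4346 without and 1907 with Alas2 in the fit. The count without Alas2 was 66 when Nkx2-5+/- replicate 2 was left out and 4368 when replicate 3 was, and 4 with the red cell list mean as the covariate.

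Muscle and red cell lists held fewer calls with Alas2 in the fit, as did all genes, whose lower calls went from 1029 to 88 and higher calls from 543 to 47. Of 31 sarcomere genes, 17 fell in Nkx2-5+/- hearts and 1 of 31 was called with Alas2 in the fit. The counts were 16 and 1 of 26 for mitochondrial genes, 9 and 0 of 28 for cardiac transcription factors and, upward, 14 and 3 of 21 for heme and iron genes. In the fit without Alas2 these lists held larger shares of calls than all genes (5.16% lower, 2.72% higher). The fall in calls with Alas2 in the fit was seen over all genes and is not particular to the lists. List medians were -0.47 without and -0.34 with Alas2 for sarcomere genes, -0.48 and -0.35 for mitochondrial genes, -0.34 and -0.18 for cardiac transcription factors, and 1.05 and 0.44 for heme and iron genes. Nkx2-5 itself fell by 0.85 (SE 0.17, limma adjusted p = 0.007), and with Alas2 in the fit the difference was -0.66 (SE 0.16, adjusted p = 0.0521). Myoz2, a Z-disc protein, went from -0.95 (SE 0.22, limma adjusted p = 0.0123) to -0.74 (SE 0.22, adjusted p = 0.0918).

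The calls with the smallest p with Alas2 in the fit were of other kinds. Lyz2, lysozyme of myeloid cells, fell by 1.56 (SE 0.22, limma adjusted p = 0.00145) and Lyz1 by 1.23 (SE 0.19, limma adjusted p = 0.004). Gpx8, Masp1, Il13ra1, Igfbp2, Cav1 and Tmem176b fell too, by 0.64 to 0.96, and Agpat4 (0.54) and Arhgap23 (0.61) rose. The macrophage list, of which Lyz1 and Lyz2 are members, had 4 of 22 members lower without Alas2 in the fit, against 5.16% of all genes. With Alas2 in the fit it had 2 of 22, against 0.441%. These 2 are Lyz1 and Lyz2 themselves, so the list added no further call.

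Brg1+/- hearts, 4 of 6 of which were in the high end, had few calls in either fit. Smarca4 fell by 0.75 (SE 0.10, limma adjusted p = 3.1e-04), and with Alas2 in the fit by 0.80 (SE 0.09, limma adjusted p = 4.7e-05). Igfbp2, which binds insulin-like growth factors in plasma and tissue, fell by 0.65 (SE 0.11, limma adjusted p = 0.0362) and differed by -0.65 with an adjusted p of 0.0757 with Alas2 in the fit, so the fold was the same. No gene was called higher in either fit (0%), and these 2 and 1 lower calls are 0.01% and 0.00502% of the genes tested. Unadjusted p under 0.05 was reached by 1935 genes without and 1230 with Alas2. Tbx5+/- and Tbx5+/-;Brg1+/- had 0 calls in both fits, with 788 and 873 genes at an unadjusted p under 0.05 without Alas2. Nkx2-5+/-;Brg1+/- had 2 higher (0.01%) and 5 lower calls (0.0251%) without Alas2, and 9 higher (0.0451%) and 5 lower (0.0251%) with it.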

How the data were processed

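Total RNA from E11.5 hearts was labelled with biotin and hybridised with 1 array per sample. The submitters' processing notes name RMA and Affymetrix Power Tools, without versions, as what the authors used, and the deposited values are log2 signals, which were taken unchanged. The genome build of the array annotation is not given in the sources used here. Of 28815 probe sets, 21780 had 1 gene symbol, 1605 several and 5430 were not listed. Taking the probe set with the highest mean per symbol left 19935 genes, of which 19853 matched the RefSeq table of GRCm38.p6. Array medians lay between 6.18 and 6.33, and correlations between arrays between 0.973 and 0.995. Arrays carry no counts, so their number limits the precision.

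The arrays, members and gene lists were chosen with earlier results of these data known. Differences between the 9 highest and 9 lowest arrays are means of log2 values without a test. Genotypes were compared with limma 3.58.1 in R 4.3.3 over all 27 arrays (21 residual and 6.71 prior degrees of freedom), two-sided, with Benjamini-Hochberg adjustment over all genes and a threshold of 0.05, and again with Alas2 as a covariate. The fit was tested on simulated data. The labels do not say that arrays are separate embryos, so p-values measure the spread between these arrays, which may be technical.

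Genes were named as follows: Alas2, Alas1 and the 3 targeted genes, up to 5 members per list with the largest absolute difference, the 15 largest higher and 15 largest lower genes outside the red cell lists with a mean of log2 6 or more, the 10 highest and lowest correlations with Alas2, and up to 10 calls per genotype comparison with Alas2 in the fit. Clone-like and receptor-family names among them, 1 higher and 2 lower, were not named, and some allowed genes were left out. Other list members are named in passing with their values, and those singled out are marked as named after their values were seen. Promoter and miRNA sequences are from RefSeq, GRCm38.p6. Alternatives were other cuts and rankings, genotype or replicate number as a block, other normalizations, probe set and low-value rules, arrays left out, and, added after seeing the data, Brg1+/- hearts alone, no hearts with an Nkx2-5 deletion, and Alas2 as a covariate without the array pair. Plots came from Python 3.11.15 and matplotlib 3.10.9.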

Additional observations from a re-analysis of the deposited data

Results flagged for a closer look

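Alas2 by genotype (4 to 6 arrays) and the list means in each end (9 arrays) were checked for a single array far from the rest, and 4 of 54 groups stood out. Chance gives about 1 in 20 groups. Alas2 read 10.60 in Nkx2-5+/- replicate 3, against 12.64 to 12.75 in the other 3 arrays of that label. The extracellular matrix mean read 9.05 in Nkx2-5+/- replicate 3, against 9.40 to 9.67 in the other 8 low arrays. The liver mean read 6.25 in Tbx5+/- replicate 1, against 5.26 to 5.66 in the other 8 high arrays. The mean of neural and crest genes read 6.60 in Brg1+/- replicate 3, against 5.79 to 5.99 in the other 8 high arrays.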

How the results depend on the processing

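Of 425 list medians recomputed, 25 turned sign. Of these, 3 were of lists whose median was at least 0.1 from 0, all within Brg1+/- hearts: chamber and conduction 0.009, mitochondria 0.056 and glycolysis 0.021. The other 22 were of 8 lists whose median was nearer to 0, such as macrophage, liver and reference genes, for which no direction is given. Of 238 values of single genes, 222 moved by less than the spread between arrays and 16 by more. Genes lower by 0.5 (89) numbered 442 with the 6 highest against the 6 lowest, 12 with 13 against 13, 182 when ranked by globins, 214 with genotype as a block, 150 without the array pair, and 51 to 213 with 1 array left out. Genes higher by 0.5 numbered 248 within Brg1+/- hearts and 518 to 614 with 1 array left out. Those outside the red cell lists (500) numbered 324 with 13 against 13, 204 within Brg1+/- hearts and 452 to 547 with 1 array left out. Other normalizations moved the median of all genes by less than 0.1.

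Alas2 against wild type in Nkx2-5+/- was 1.39 without the pair and 0.67 to 1.39 with 1 array left out, the highest without replicate 3. With 1 array left out it was -0.12 to 0.25 in Tbx5+/- (lowest without replicate 1), -0.22 to 0.45 in Tbx5+/-;Brg1+/- (lowest without replicate 3), 0.43 to 0.74 in Brg1+/- and -1.10 to -0.26 in Nkx2-5+/-;Brg1+/-. In Tbx5+/-;Brg1+/- it was -0.22 without the pair. The 2 calls of Brg1+/- were 1 after quantile normalization, with the 2 groups alone, and with Alas2, the red cell list mean, or Alas2 without the pair in the fit, 4 without the pair, and 1 to 3 with 1 array left out. The 1572 calls of Nkx2-5+/- were 4 with the 2 groups alone, 4346 without the pair, 135 with Alas2, 4 with the red cell list mean, and 66 to 4368 with 1 array left out. The causes were not tested.

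Replicate numbers gave no clear pairing of the arrays by the median correlation. Deviations of 55 same-numbered pairs had a median correlation of 0.01 (-0.45 to 0.41), with 18 over 0.1. The 244 other pairs had a median of -0.002 (-0.50 to 0.47), with 52 over 0.1, which is a smaller share. With the replicate block, 263 genes were lower by 0.5, Alas2 in Tbx5+/-;Brg1+/- differed by -0.096, Brg1+/- had 1 call and Nkx2-5+/- 1120.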
